A study of Saccharomyces cerevisiae with 10 samples.

Results

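The long unnamed open reading frames are the yeast genes that the deposited tables still list by a systematic name alone, such as YNL134C, and that are at least 900 bases long. The rule uses the name and the deposited length, leaves out YNL194C and YML131W by name although these 2 match, and uses no signal value. It finds 304 members among 6677 features. Of the 304, 290 had an entry in the RefSeq annotation of assembly R64 and 14 had none. The name in the tables is older than the annotation for many of them. RefSeq gives 89 members a gene symbol of their own, leaves 201 with the systematic name, and describes the product of 147 as an uncharacterized protein.

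PAR-CLIP, a crosslinking and immunoprecipitation assay in cells fed a photoactivatable nucleoside, which pulls down a tagged protein after UV crosslinking and reads the RNA bound to it, was applied to Saccharomyces cerevisiae. The protein mapped is RNA polymerase II (Pol II), going by the study's design text. The 6 libraries with values fall into 3 groups of 2. The control is the cassette strain without rapamycin, labelled NabCassette (2876) and titled Nab_WT. The first depletion is a Nab3-FRB strain, NabFRB (2875), with rapamycin, and the second an Rpb2-HTB Nrd1-FRB strain, Rpb2HTB_NrdFRB (2771), with rapamycin for 45 min. Rpb2 is a Pol II subunit and is named in the labels of the Nrd1 group alone. What sequence the cassette holds and the time in rapamycin of the Nab3 group were not given in the sources used here. FRB is a tag that rapamycin binds to an anchor protein outside the nucleus, so that the tagged protein leaves the nucleus. In both comparisons the strain, the depletion and rapamycin all changed at once, so a difference belongs to their combination. The Nab3 and Nrd1 groups also differ from each other in strain, 2875 against 2771, and may differ in the time in rapamycin. In the direct comparison of the depletions these cannot be told apart from the protein depleted.

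Nab3 and Nrd1 are RNA-binding proteins that, with the helicase Sen1, end transcription by Pol II at many short noncoding RNA genes and near the start of some protein-coding genes. Nab3 is known for binding RNA with the core UCUU, and Nrd1 for binding GUAG or GUAA. Among unnamed reading frames are enzymes and transporters known from sequence similarity, meiotic and cell-cycle genes that are quiet in growing cells, and copies of the helicase gene carried by the Y' elements next to telomeres.

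A promoter window of 250 bases before to 50 bases after the first base of the start codon was read from the R64 genome for each member with an entry. The first 5 windows below belong to members that fell in both comparisons and were picked among those because they hold TTACTAA, a sequence known as a binding site of the oxidative stress factor Yap1. Other members that fell in both, YKL151C, YPL113C, YPR011C and YGL185C among them, have it on neither strand of their windows. Capitals mark TTACTAA or its reverse complement TTAGTAA. The search for TTACTAA, on either strand, was added after the values were seen. The windows lie at chrXIV:373532-373831 for YNL134C, chrIV:240009-240308 for YDL124W, chrIII:305418-305717 for YCR102C, chrXII:1060838-1061137 for YLR460C and chrXII:368075-368374 for YLR108C. YDL124W is on the plus strand, the other members are on the minus strand, and each window is written 5′ to 3′ in the direction of its gene.
YNL134C: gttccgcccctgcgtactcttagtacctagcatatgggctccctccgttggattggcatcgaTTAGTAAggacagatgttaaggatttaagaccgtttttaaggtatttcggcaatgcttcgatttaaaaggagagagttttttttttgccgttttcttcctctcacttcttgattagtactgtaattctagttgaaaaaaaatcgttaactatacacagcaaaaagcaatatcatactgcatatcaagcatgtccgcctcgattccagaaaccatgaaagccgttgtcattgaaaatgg
YDL124W: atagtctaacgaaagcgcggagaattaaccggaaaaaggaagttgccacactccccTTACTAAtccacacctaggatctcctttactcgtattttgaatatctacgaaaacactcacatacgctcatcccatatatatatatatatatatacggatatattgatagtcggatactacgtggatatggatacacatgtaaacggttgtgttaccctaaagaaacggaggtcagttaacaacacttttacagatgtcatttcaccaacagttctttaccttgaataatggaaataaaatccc
YCR102C: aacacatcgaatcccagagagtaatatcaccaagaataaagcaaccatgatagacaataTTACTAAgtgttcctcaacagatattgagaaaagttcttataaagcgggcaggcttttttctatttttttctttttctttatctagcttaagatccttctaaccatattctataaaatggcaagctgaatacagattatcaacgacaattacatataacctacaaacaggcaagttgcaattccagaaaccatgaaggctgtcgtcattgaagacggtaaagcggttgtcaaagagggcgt
YLR460C: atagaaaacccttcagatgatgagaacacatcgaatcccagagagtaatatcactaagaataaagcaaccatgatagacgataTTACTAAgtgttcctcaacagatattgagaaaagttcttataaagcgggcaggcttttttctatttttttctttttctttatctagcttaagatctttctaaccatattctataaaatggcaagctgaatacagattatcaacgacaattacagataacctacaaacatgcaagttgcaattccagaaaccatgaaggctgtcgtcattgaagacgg
YLR108C: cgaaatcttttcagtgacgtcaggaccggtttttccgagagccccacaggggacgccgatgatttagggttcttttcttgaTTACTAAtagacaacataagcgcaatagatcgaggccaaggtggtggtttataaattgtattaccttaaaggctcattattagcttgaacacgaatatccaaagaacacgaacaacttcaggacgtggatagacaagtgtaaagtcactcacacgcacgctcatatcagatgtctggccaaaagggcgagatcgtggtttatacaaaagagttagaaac
Counted from the first base of the start codon, the marked sequence began at -188 in YNL134C, -194 in YDL124W, -191 in YCR102C, -167 in YLR460C and -169 in YLR108C. In YDL124W its first T is also the last base of CCCCT, the reverse complement of AGGGG, which is the stress response element.

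A further window, chrXIV:754986-755285 on the minus strand, is shown because YNR066C had one of the largest rises after Nab3 depletion. Capitals mark GTAG, the DNA letters of an Nrd1 site, at -65 on the sense strand, and its reverse complement CTAC at -90. GTAG is on either strand of 80.0% of all 6020 promoter windows, and GTAA was not searched for. TCTTG, the DNA letters of a strong Nab3 site, is on neither strand of this window. The gap between YNR066C and the next reading frame, YNR065C, is only 24 bases. It is given in capitals with 15 bases on each side, from the last codons of YNR066C to the first codons of YNR065C, at chrXIV:753686-753739 on the minus strand.
YNR066C: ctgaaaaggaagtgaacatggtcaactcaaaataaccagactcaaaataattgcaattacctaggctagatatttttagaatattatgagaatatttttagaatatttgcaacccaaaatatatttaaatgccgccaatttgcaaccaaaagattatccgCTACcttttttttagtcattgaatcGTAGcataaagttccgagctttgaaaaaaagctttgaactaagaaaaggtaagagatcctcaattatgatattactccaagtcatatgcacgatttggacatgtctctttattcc
YNR066C to YNR065C gap: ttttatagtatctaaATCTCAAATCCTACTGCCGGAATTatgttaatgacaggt

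The libraries held 7395659 to 13428820 recovered reads. Values are normalised reads, the read count of a gene over the size factor set by the authors, with the Nrd1 libraries brought to the scale of the other table by multiplying them by 1.18. The labels do not state separate cultures for libraries of the same group, so the p-values cover the spread between libraries and no more. Adjusted p-values come from limma with Benjamini-Hochberg adjustment over all features tested, and a call means an adjusted p under 0.05. Fold changes are on the log2(value + 1) scale and are given with their standard error (SE).

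In the cassette control the members carried less signal per length than other genes of their size. Their median was 600 normalised reads per kb, against 879 for the 3556 other features of at least 900 bases. The middle of the members lay between 297 (25th percentile) and 989 (75th percentile) normalised reads per kb. A tail of members reached below the range of most other genes, and 10 percent of members were under 24.4 normalised reads per kb, against 298 for the other features. The 14 members without an entry had a median of 0 normalised reads per kb, and the 13 of the Y' helicase family 8.45. Both medians lie in this tail. Whether low values there mean little signal or reads that could not be assigned was not tested.

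**Figure D1:**
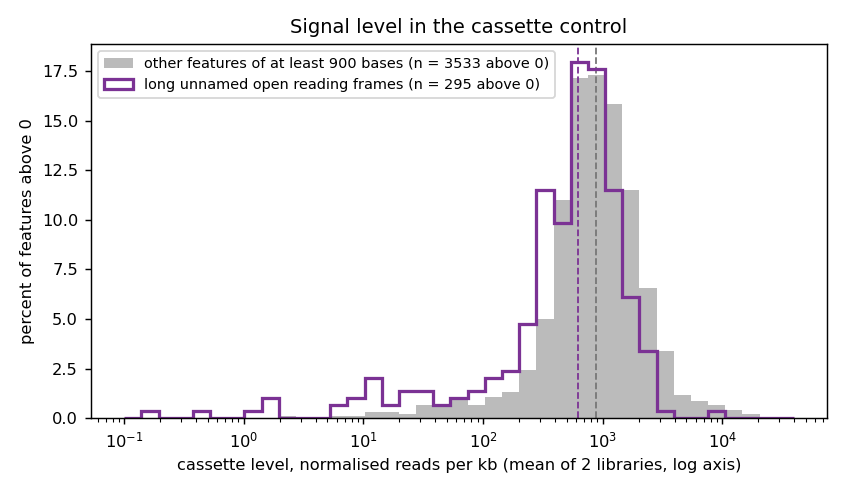
Distribution of the cassette level in normalised reads per kb (log x axis, mean of 2 libraries) as the percent of features above 0 (y axis), for the long unnamed open reading frames (purple line) and other features of at least 900 bases (grey). Dashed lines are medians of the features above 0, and the members show a longer tail to low values.

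YNL134C, an NADH-dependent aldehyde reductase that detoxifies furfural, stood above all other members with 10572 ± 104 normalised reads per kb (SD, n = 2). The next was YDL124W, an alpha-keto amide reductase of the aldo-keto reductase family, at 3033 ± 82.0 (SD, n = 2). YDR341C, the cytosolic arginyl-tRNA synthetase, followed at 2721 ± 135 (SD, n = 2). YGR283C (UPA1) had 2548 ± 77.9 and YHR020W, the prolyl-tRNA synthetase, 2400 ± 42.1 normalised reads per kb (SD, n = 2). Each of the first 4 exceeded the next by more than the SD of either, whereas YHR020W and the members ranked 6 and 7, YPL260W at 2398 and YPL245W at 2398, differed by less than their SD. Both tRNA synthetases passed no test in either comparison, with log2 fold changes of 0.10 and -0.06 for Nab3 and of 0.22 and 0.08 for Nrd1 (limma adjusted p = 0.15, 0.416, 0.053 and 0.392). The Nrd1 rise of YDR341C was called under 4 of 14 alternatives.

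At the other end, 9 members were listed at 0 reads in all 6 libraries, and a count of 0 allows up to 3 reads in each. Of these, 8 had no entry in RefSeq, and the other is YHR219W, a Y' helicase copy. Whether reads could be assigned to them was not tested, so a 0 need not mean absence of signal. Because of low values, 16 members were not tested after Nab3 depletion and 17 after Nrd1 depletion. Per length, the lowest members tested after Nab3 depletion were YFL066C, YBL111C and YBL113C, all from Y' elements, at 8.99, 8.45 and 6.43 normalised reads per kb. Their cassette values were 13.3 and 7.9, 18.6 and 16.9, and 15.9 and 14.7 normalised reads. YFL066C was not tested after Nrd1 depletion. The members nearest the length limit inside it are YNL050C at 903 bases and YER076C and YMR130W at 908 bases, with 1279, 548 and 811 normalised reads in the cassette. Those nearest outside are YJL068C at 899, YLL056C at 896 and YGR017W at 893 bases, with 667, 356 and 1686 normalised reads.

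After Nab3 depletion, 72 members rose and 44 fell among 288 tested, or 40.3%. Among all 6360 features tested 39.7% were called, 21.1% higher and 18.7% lower, so the share of members is near the background. The median log2 fold change was 0.04 over members and -0.01 over all features. At least 2-fold changes were rarer, with 6 of the 288 members tested higher and 5 lower. Of all 6360 features 215 (3.38%) were higher and 54 (0.849%) lower by this measure. The count of members that fell was 28 with DESeq2, 27 without cassette library 1 and 29 without cassette library 2.

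After Nrd1 depletion, 64 members rose and 54 fell among 287 tested, or 41.1%, against 35.3% of all 6347 features (17.5% higher and 17.8% lower). The median log2 fold change of members was 0.03. At least 2-fold, 4 of the 287 members tested rose and 8 fell, beside 251 (3.95%) and 93 (1.47%) of all 6347 features. Without cassette library 1 only 20 members were called higher and 17 lower, and without cassette library 2 only 20 and 15. Both comparisons use the same cassette libraries, so values are set side by side below and no overlap of calls is given. For Nab3 depletion, the authors' deposited table called 80 members, 52 higher and 28 lower. For Nrd1 depletion, the authors' deposited table called 76, 40 higher and 36 lower.

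The members that fell most were led by enzymes of oxidation and reduction. Of 13 oxidoreductase-like members, all of them tested, 2 rose and 7 fell after Nab3 depletion, with a median log2 fold change of -0.50. After Nrd1 depletion 2 rose and 6 fell, with a median of -0.48. These medians compare with -0.01 and -0.00 for all features, and 69.2% and 61.5% of the list were called, against 39.7% and 35.3% of all features. The list was written by hand with earlier results of these data known, so these values describe it and are no test. YLR460C and YCR102C, both on it and both lower, are near-identical copies.

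YNL134C had 12030 and 11863 normalised reads in cassette libraries 1 and 2, 4758 and 4971 in Nab3 libraries 2 and 3, and 4390 and 2711 in Nrd1 libraries 1 and 2. All 4 depleted libraries were below both controls, and the Nrd1 libraries differed from each other more than the other pairs did. The log2 fold changes were -1.30 ± 0.05 after Nab3 depletion (SE, limma adjusted p = 2.27e-10) and -1.79 ± 0.20 after Nrd1 depletion (SE, limma adjusted p = 0.00109). The gene lies at chrXIV:372451-373581 on the minus strand. The next gene in its direction, 224 bases on, is FPR1, which encodes the protein that binds rapamycin. FPR1 itself had 163 and 154 normalised reads in the cassette, 93.9 and 108 in the Nab3 and 113 and 105 in the Nrd1 libraries. The sources used here do not give the genotype at FPR1, and its part in the values of YNL134C was not tested.

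YDL124W had 2900 and 2791 normalised reads in the controls, 1904 and 2117 in the Nab3 libraries and 1160 and 1191 in the Nrd1 libraries. The 3 groups did not overlap, and the Nrd1 libraries were the lowest. The log2 fold changes were -0.50 ± 0.06 after Nab3 depletion (SE, limma adjusted p = 1.22e-05) and -1.27 ± 0.06 after Nrd1 depletion (SE, limma adjusted p = 3.76e-05). The direct comparison of both depletions gave a difference of 0.77 ± 0.07 (SE, limma adjusted p = 0.000201).

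YLR460C and YCR102C are quinone oxidoreductase-like genes on chromosomes XII and III whose reading frames are 94.2% identical, so the reads of one may be counted in the other. YLR460C had 2073 and 1784 normalised reads in the cassette, 962 and 821 with Nab3 depleted, and 779 and 572 with Nrd1 depleted. For YCR102C the values were 1454 and 1180, then 756 and 607, then 571 and 426. In both genes every depleted library was below both controls. Log2 fold changes were -1.11 and -1.52 for YLR460C (limma adjusted p = 1.18e-07 and 0.000599) and -0.95 and -1.41 for YCR102C (limma adjusted p = 5.66e-06 and 0.00114). The gene behind YCR102C on the same strand, YCR101C, moved the other way. It went from 562 and 602 normalised reads to 1257 and 1398 with Nab3 depleted and to 954 and 749 with Nrd1 depleted (limma adjusted p = 2.08e-08 and 0.016, the latter up to 0.118 and lost under 3 of 14 alternatives).

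Other members of the oxidoreductase list had lower levels. YPL113C, a glyoxylate reductase, fell from 262 and 197 normalised reads to 103 and 88.9 with Nab3 depleted and to 90.6 and 113 with Nrd1 depleted. Its depleted libraries lay below both controls, with log2 fold changes of -1.24 and -1.16 (limma adjusted p = 2.31e-05 and 0.00609). The Nrd1 call of YPL113C was lost without cassette library 1 (limma adjusted p = 0.0872; over the 14 alternatives, count models included, 1.82e-14 to 0.0872). YGL185C, a hydroxyacid dehydrogenase-like protein, went from 784 in each control to 451 and 435 and to 415 and 539. It was called lower in both comparisons, at -0.82 and -0.73 (limma adjusted p = 1.34e-06 and 0.0065, the latter up to 0.055 and lost without cassette library 1 or 2).

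Against these, YPL088W, a putative aryl alcohol dehydrogenase, rose from 1424 in each cassette library to 2613 and 2797 in the Nab3 libraries and 2432 and 2363 in the Nrd1 libraries. The log2 fold changes were 0.92 ± 0.06 and 0.75 ± 0.06 (SE, limma adjusted p = 1.32e-08 and 0.000232). YDL114W, a short-chain dehydrogenase-like gene, was called higher in both at very low levels, from 17.7 and 22.6 to 42.4 and 29.2 and to 52.6 and 35.8 normalised reads. Its calls were lost under 4 of 12 alternatives for Nab3 and 4 of 13 for Nrd1, with limma adjusted p up to 0.271 and 0.27.

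Genes outside that list shared the fall. YKL151C (NNR2), an NADHX dehydratase that repairs damaged NADH, went from 1114 and 1168 normalised reads to 482 and 568 with Nab3 depleted and to 408 and 300 with Nrd1 depleted. No depleted library reached the controls, and the log2 fold changes were -1.12 and -1.70 (limma adjusted p = 1.18e-07 and 0.00038). YLR108C, a protein of unknown function seen in the nucleus, went from 2617 and 2545 to 1448 and 1473 and to 1364 and 1150. Its log2 fold changes were -0.82 and -1.04 (limma adjusted p = 3.1e-08 and 0.000358). AHP1, the peroxiredoxin gene transcribed away from YLR108C across a gap of 656 bases, fell too, by 0.53 and 1.41 in log2 (limma adjusted p = 1.7e-06 and 9.86e-05). YPR011C (MRX21), a mitochondrial carrier for adenosine phosphosulfates, went from 1069 and 980 to 571 and 442 and to 533 and 665 (limma adjusted p = 2.11e-06 and 0.00361).

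**Figure D2:**
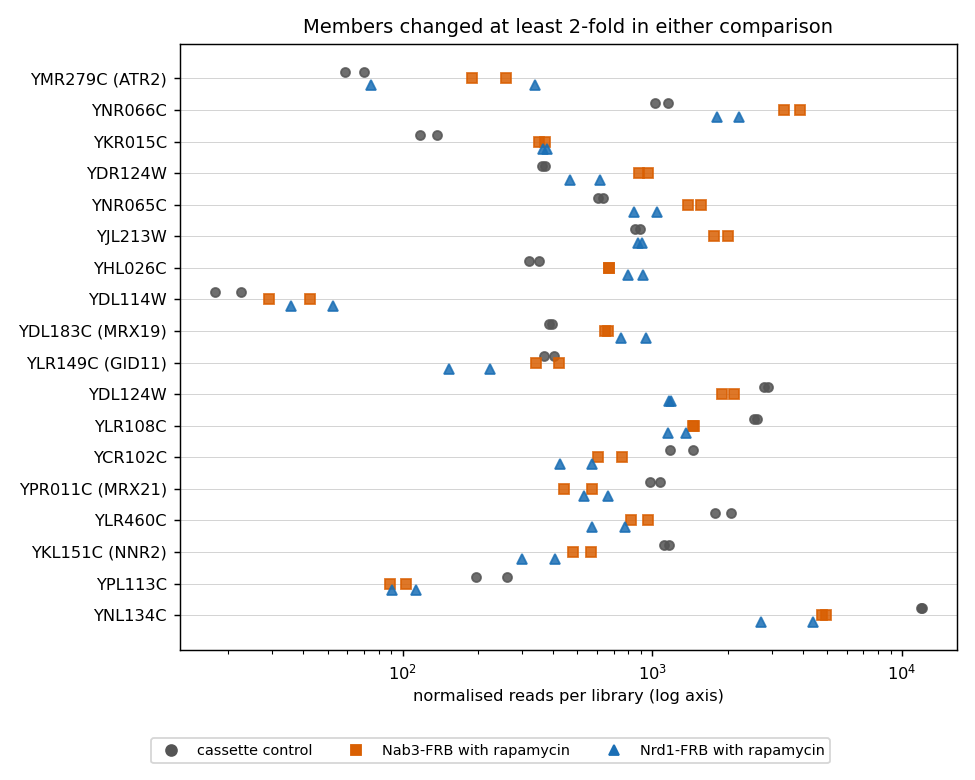
Normalised reads in each of the 6 libraries (log x axis) for the members called with a change of at least 2-fold in either comparison, ordered by the Nab3 log2 fold change. Grey circles are cassette, orange squares Nab3-FRB and blue triangles Nrd1-FRB libraries; in YNL134C the depleted libraries reach at most 4971 and the controls at least 11863.

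TTACTAA on either strand was found in 4 of the 13 oxidoreductase-like windows, those of YNL134C, YDL124W, YCR102C and YLR460C printed above. YCR102C and YLR460C are near-identical copies, so their windows are not independent of each other. It was in 7.49% of all 6020 promoter windows and in 11.4% of the 290 member windows. Among members that fell after Nrd1 depletion 11 of 53 windows held it, or 20.8%, against 6 of 64, or 9.38%, of those that rose. After Nab3 depletion the shares were 16.3% and 8.33%. TTACTAA was added to the search after the values were seen, so these shares describe the windows and are no test. A match is a description of letters in these windows and not a binding site.

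AGGGG, the stress response element bound by Msn2 and Msn4, was counted on either strand in the same windows. It was in 27 of the 53 windows of members that fell after Nrd1 depletion, or 50.9%, in 17.2% of those that rose and in 25.9% of those not called. The share was 21.6% over all promoter windows and 27.9% over the member windows. After Nab3 depletion it was 32.6% of members that fell, 18 of the 72 that rose and 29.0% of those not called. In the direct comparison, 23 of 43 members that were higher after Nab3 than after Nrd1 depletion held AGGGG, or 53.5%, against 17.6% of the 34 that were lower. It was in 25.1% of those not called. The direct comparison uses the same Nrd1 libraries, so these shares are not independent of those for Nrd1 depletion. Motif shares by call, here and in the neighbouring paragraphs, use the calls with all libraries. They were not recomputed under the alternatives, and many Nrd1 calls were lost without a cassette library.

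TCTTG, the DNA letters of a strong Nab3 site, was counted on the sense strand. It was in 33 of 72 windows of members that rose after Nab3 depletion, or 45.8%, in 34.9% of members not called and in 23.3% of those that fell, and in 31.4% of all windows. After Nrd1 depletion the shares were 42.2%, 33.1% and 37.7%. GTAG on the sense strand was in 53.1% of members that rose after Nrd1 depletion and 34.0% of those that fell. It was in 52.4% of those not called and in 54.5% of all windows. After Nab3 depletion the shares with GTAG were 52.8% of members that rose, 41.9% of those that fell and 49.7% of those not called. TGTAG, which contains GTAG, was in 17.2% of members that rose after Nrd1 depletion, 15.1% of those that fell and 21.8% of all windows. After Nab3 depletion it was in 23.6% of those that rose and 11.6% of those that fell. In the direct comparison it was in 30.2% of members higher after Nab3 depletion and 11.8% of those lower. GATAAG on either strand, the site of GATA factors, was in 20.3% of members that rose after Nrd1 depletion, 13.2% of those that fell and 14.6% of all windows.

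**Figure D3:**
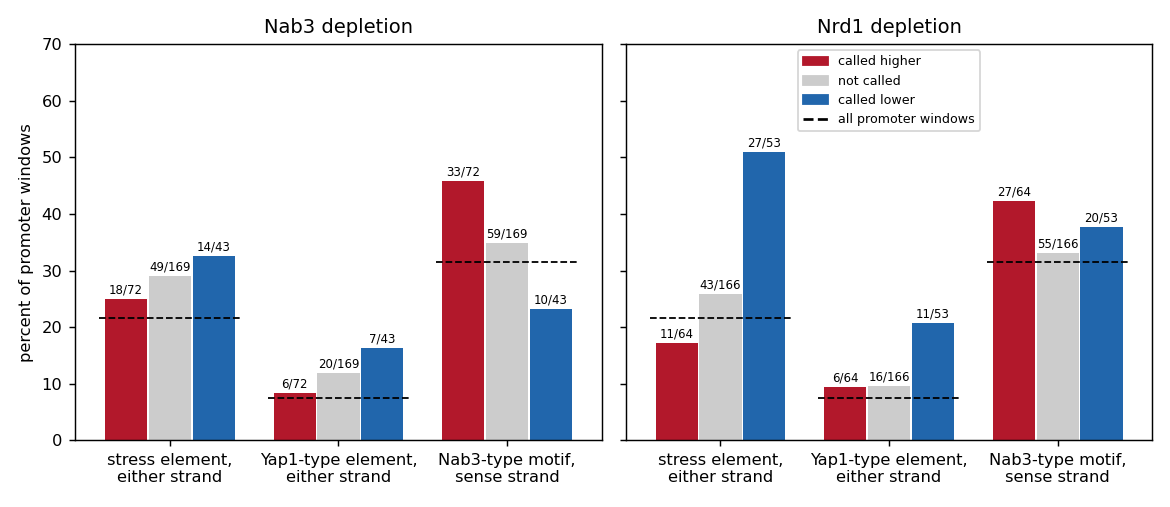
Percent of promoter windows (y axis) with the stress element AGGGG, the Yap1-type element TTACTAA and the Nab3-type motif TCTTG, for members called higher (red), not called (grey) and called lower (blue) after each depletion; numbers over the bars are windows with the motif out of windows in the class. Dashed lines are the shares over all 6020 windows, and the tallest bar is the stress element in members that fell after Nrd1 depletion, at 50.9%.

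The largest rises were in genes of varied or unknown function. YKR015C, which has no known function, had 118 and 137 normalised reads in the controls, 372 and 352 in the Nab3 libraries and 365 and 378 in the Nrd1 libraries. Its 4 depleted libraries were close together and all above the controls. The log2 fold changes were 1.51 ± 0.12 (SE, limma adjusted p = 2.56e-07) and 1.54 ± 0.14 (SE, limma adjusted p = 0.000522). Its neighbours MIC60 and YPT52 had log2 fold changes of 0.01 and -0.12 after Nab3 depletion (limma adjusted p = 0.875 and 0.257) and of -0.21 and -0.18 after Nrd1 depletion (limma adjusted p = 0.0319 and 0.183). The Nrd1 call of MIC60 was lost under 5 of 14 alternatives, with adjusted p up to 0.279, and YPT52 passed without Nrd1 library 1 (limma adjusted p = 0.00596).

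YHL026C, a cell periphery protein reported as a target of the sterol factor Upc2, went from 352 and 320 normalised reads to 670 and 669 with Nab3 depleted and to 921 and 795 with Nrd1 depleted. The groups did not overlap, with log2 fold changes of 0.99 ± 0.09 and 1.35 ± 0.11 (SE, limma adjusted p = 6.49e-07 and 0.00035). YDL183C (MRX19), a mitochondrial inner membrane protein linked to potassium and proton exchange, went from 396 and 384 to 665 and 643 and to 745 and 943. Every depleted library was above the controls (limma adjusted p = 6.56e-06 and 0.00123). YDR124W, a gene strongly induced by the mating pheromone alpha factor, went from 371 and 362 to 882 and 956 with Nab3 depleted and to 617 and 467 with Nrd1 depleted. Both groups lay above the controls. The Nab3 change was 1.32 ± 0.08 (SE, limma adjusted p = 1.48e-08) and the Nrd1 change 0.55 ± 0.14 (SE, limma adjusted p = 0.0249). The latter was lost under 3 of 14 alternatives, with limma adjusted p up to 0.133.

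YMR279C (ATR2), a putative boron efflux transporter, had the largest rise after Nab3 depletion. It had 69.9 and 58.7 normalised reads in the controls, 260 and 189 in the Nab3 libraries, and 339 and 74.3 in the Nrd1 libraries. The Nab3 libraries were clear of the controls, whereas Nrd1 library 2 was near them and Nrd1 library 1 was the highest of the 6. The Nab3 log2 fold change was 1.77 ± 0.17 (SE, limma adjusted p = 1.73e-06). The Nrd1 value of 1.30 ± 0.61 did not pass the test (SE, limma adjusted p = 0.139).

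YNR066C, a putative membrane protein, and YNR065C, a reading frame similar to the sorting receptor gene VTH2, lie in tandem behind DSE4, a gene for a daughter-cell glucanase. DSE4 is at chrXIV:755746-759099, YNR066C at chrXIV:753725-755035 and YNR065C at chrXIV:750350-753700, all on the minus strand, and 710 bases separate the first from the second. In normalised reads per kb, YNR066C had 779 and 882 in the cassette, 2563 and 2966 with Nab3 depleted, and 1699 and 1391 with Nrd1 depleted. YNR065C had 189 and 181, then 414 and 468, then 311 and 251. In both genes the Nab3 libraries were highest, the Nrd1 libraries intermediate and no group overlapped another.

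The log2 fold changes of YNR066C were 1.73 ± 0.07 after Nab3 depletion (SE, limma adjusted p = 2.69e-10) and 0.89 ± 0.11 after Nrd1 depletion (SE, limma adjusted p = 0.00162). For YNR065C they were 1.25 ± 0.07 and 0.60 ± 0.11 (SE, limma adjusted p = 9.84e-09 and 0.008). The Nrd1 call of YNR065C was lost without cassette library 1 or 2, with limma adjusted p up to 0.0614; over the alternatives, count models included, the lowest was 1.04e-16. YNR065C is 91.4% identical to VTH2 over nearly all of its length, so its counts are uncertain. DSE4 rose as well, from 609 and 650 normalised reads per kb to 1307 and 1312 with Nab3 depleted and to 2336 and 1167 with Nrd1 depleted (limma adjusted p = 1.8e-09 and 0.00919, the latter 0.0588 without the mean-variance trend). YNR064C, the next gene behind the pair, had 83.2 and 71.2, then 85.2 and 90.8, then 139 and 67.0 normalised reads per kb and passed neither test (limma adjusted p = 0.436 and 0.496).

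**Figure D4:**
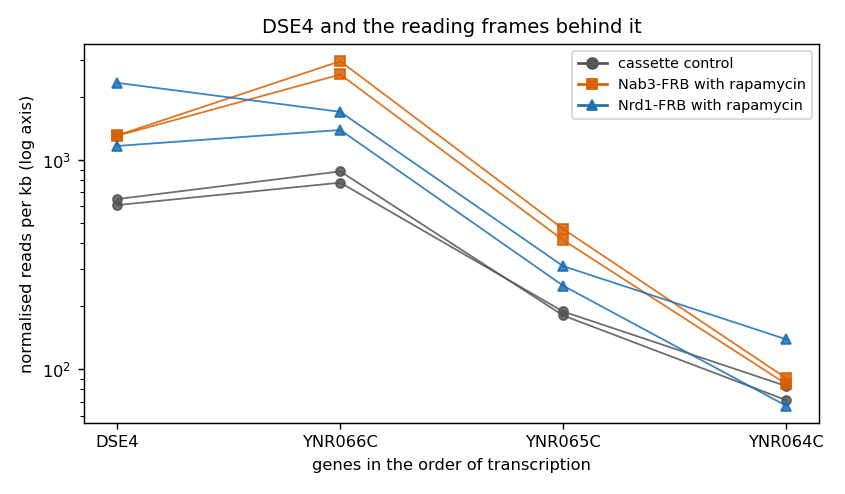
Normalised reads per kb (log y axis) in the 6 libraries for DSE4, YNR066C, YNR065C and YNR064C in the order in which they are transcribed (x axis). Each line is a library; at YNR066C the Nab3 libraries (orange) reach 2563 and 2966 and the cassette libraries (grey) 779 and 882, while at YNR064C the groups overlap.

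Of the 25 transporter-like members, 8 rose, 4 fell and 13 passed no test after Nab3 depletion, and 4 rose, 4 fell and 17 passed no test after Nrd1 depletion. The shares called, 48.0% and 32.0%, are near the 39.7% and 35.3% of all features. VVS1 (YBR241C), a vacuolar sugar porter-like protein, went from 638 and 578 normalised reads to 993 and 906 and to 834 and 917. All depleted libraries were above the controls, with log2 fold changes of 0.64 and 0.53 (limma adjusted p = 1.72e-05 and 0.00607, the latter up to 0.072 without cassette library 2). YHL008C, a vacuolar protein possibly involved in chloride uptake, went from 180 and 171 to 268 and 277 and to 411 and 240, with log2 fold changes of 0.63 and 0.84 (limma adjusted p = 0.000523 and 0.0339, the latter up to 0.14 over the alternatives). YJL163C, a membrane protein of unknown function, was lower after Nrd1 depletion, at 260 and 340 against 434 and 444 in the cassette (limma adjusted p = 0.0247, up to 0.153 over the alternatives).

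Of 7 zinc-finger regulator-like members, 2 rose in each comparison and none fell in either. That is 28.6% called, beside 39.7% and 35.3% of all features. YLR278C, a zinc-cluster protein, went from 2898 and 3013 to 3845 and 4166 and to 4031 and 3678 normalised reads (limma adjusted p = 2.29e-05 and 0.006, the latter up to 0.0776 without cassette library 1). YPR196W, a putative maltose-responsive factor, rose only after Nrd1 depletion by its own tests, and its difference between depletions is given below. None of 4 kinase-like members was called after Nab3 depletion with limma. After Nrd1 depletion NGK1 (YLR446W), an N-acetylglucosamine kinase, was higher at 0.36 and CQD1 (YPL109C), a mitochondrial UbiB kinase-like protein, lower at -0.25 (limma adjusted p = 0.0194 and 0.035, up to 0.13 and 0.272 over the alternatives).

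The Y' helicase family had 13 members, of which 8 were tested after Nab3 and 7 after Nrd1 depletion. Their median cassette level was 8.45 normalised reads per kb, and their near-identical copies make the assignment of reads uncertain. YIL177C alone was called, going from 83.1 and 75.7 normalised reads to 49 and 59.7 and to 49.7 and 33.2, with log2 fold changes of -0.54 and -0.94. These calls were not stable, with limma adjusted p of 0.0361 and 0.0338 rising to 0.203 with DESeq2 and 0.238 without cassette library 1.

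**Figure D5:**
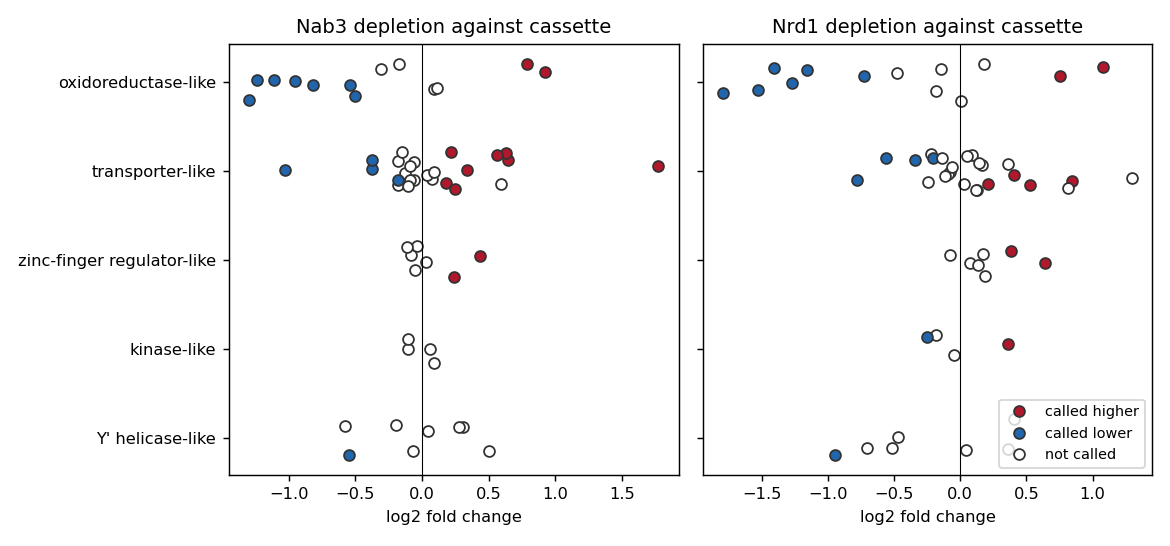
Log2 fold change (x axis) of each tested member of the 5 family lists after Nab3 (left) and Nrd1 (right) depletion against the cassette, each point a member. Red points were called higher, blue points lower and white points not called; 7 of 13 oxidoreductase-like members fell after Nab3 depletion and 6 of 13 after Nrd1 depletion.

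In RefSeq, the evidence text of 185 members matched the name of a compartment searched for. A match need not be a term for location, and other compartments, the Golgi among them, were not searched. This grouping, with the examples named from it, was chosen after the values were seen. Of 37 vacuolar members, 16 rose and 4 fell after Nab3 depletion and 12 rose and 7 fell after Nrd1 depletion. For all features the shares were 21.1% higher and 18.7% lower with Nab3 depleted, and with Nrd1 depleted 17.5% higher and 17.8% lower. In the vacuolar group VTC5 (YDR089W), a subunit of the polyphosphate polymerase complex, went from 1788 and 1827 normalised reads to 2436 and 2418 and to 2151 and 2076 (limma adjusted p = 1.88e-05 and 0.021, the latter up to 0.211 over the alternatives and lost under 4 of 14, cassette library 1 or 2 left out among them). TAG1 (YLR173W), which acts in the termination of autophagy, rose after Nab3 depletion from 1164 and 1247 to 1602 and 1753 (limma adjusted p = 4.51e-05). AIT1 (YDL180W), a receptor-like protein that restrains TORC1, went down from 1529 and 1440 to 1037 and 1015 and to 1083 and 1106 (limma adjusted p = 1.04e-05 and 0.00337, the latter up to 0.0632 without cassette library 1).

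Of 41 nuclear members tested after Nab3 depletion 5 rose and 11 fell, and of 40 tested after Nrd1 depletion 8 rose and 16 fell, beside the shares of all features just given. YNL134C, YDL124W and YLR108C, described above, are among those that fell. FPT1 (YKR011C), a chromatin-bound regulator of RNA polymerase III, went from 925 and 1079 normalised reads to 675 and 816 and to 541 and 643 (limma adjusted p = 0.00239 and 0.00377, the former up to 0.0666 without the mean-variance trend). YPL245W went up from 3194 and 3346 to 5211 and 5167 and to 4919 and 4755 (limma adjusted p = 1.69e-07 and 0.000994). Mitochondrial members were mixed, with 6 higher and 7 lower of 38 after Nab3 depletion and 10 higher and 6 lower after Nrd1 depletion. The shares called, 34.2% and 42.1%, compare with 39.7% and 35.3% of all features. Of 88 cytoplasmic members, 21 rose and 15 fell after Nab3 depletion, and 20 rose and 19 fell after Nrd1 depletion. That is 40.9% and 44.3% called. For 27 endoplasmic reticulum members the counts were 8 and 4, then 3 and 3. For 16 of the plasma membrane or cell periphery they were 4 and 3, then 3 and 3. For 5 peroxisomal members they were 2 and 1, then 1 and 1.

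In the direct comparison of the depletions, 43 members were higher after Nab3 than after Nrd1 depletion and 34 lower among 288 tested, or 26.7%, against 21.0% of all 6385 features (12.1% higher and 8.91% lower). With upper-quartile scaling the split of members turned to 35 higher and 42 lower, and that of all features from 772 higher and 569 lower to 634 and 806. Without Nab3 library 3 only 13 members were higher and 8 lower, without Nab3 library 2 the counts were 23 and 14, and without either cassette library they were 28 and 17. At least 2-fold differences were called for 3 of the 288 members tested, all higher after Nab3 depletion. Of all 6385 features 54 (0.846%) were higher and 40 (0.626%) lower by this measure.

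YJL213W, a gene that oscillates in the metabolic cycle, was the largest. It had 893 and 854 normalised reads in the controls, 2009 and 1760 in the Nab3 libraries and 872 and 907 in the Nrd1 libraries. The Nab3 libraries stood alone and the others overlapped. The Nab3 log2 fold change was 1.11 ± 0.07 (SE, limma adjusted p = 2.08e-08), the Nrd1 value 0.03 ± 0.07 (SE, limma adjusted p = 0.803), and the difference 1.08 ± 0.08 (SE, limma adjusted p = 0.000118).

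GID11 (YLR149C), a substrate receptor of the ubiquitin ligase that removes gluconeogenic enzymes, had 368 and 403 normalised reads in the cassette, 341 and 423 with Nab3 depleted, and 224 and 153 with Nrd1 depleted. The Nab3 libraries lay on either side of the controls and the Nrd1 libraries below all others, with a log2 fold change of -1.05 ± 0.19 (SE, limma adjusted p = 0.00681). That call was lost without cassette library 2 (limma adjusted p = 0.0597; over the alternatives, count models included, 5.43e-23 to 0.0597). The difference between depletions was 1.04 ± 0.18 (SE, limma adjusted p = 0.00614, up to 0.0699 without Nab3 library 3).

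GPC1 (YGR149W), the glycerophosphocholine acyltransferase of phosphatidylcholine synthesis, went in opposite directions. It had 1330 and 1618 normalised reads in the controls, 1892 and 2304 in the Nab3 libraries and 1187 and 905 in the Nrd1 libraries. The groups did not overlap, and the log2 fold changes were 0.51 and -0.50 (limma adjusted p = 0.000562 and 0.0328). The Nab3 adjusted p rose to 0.0571 in limma without the mean-variance trend, and the Nrd1 adjusted p to 0.19 without cassette library 2.

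YOL107W, a Golgi-associated protein, had 1747 and 2062 normalised reads in the cassette, then 2635 and 3024, then 1580 and 1458, with log2 fold changes of 0.57 and -0.32 (limma adjusted p = 4.29e-05 and 0.031, the latter up to 0.245 over the alternatives). Its divergent neighbour INO4, a regulator of phospholipid genes 215 bases away, had log2 fold changes of 0.08 and -0.35 (limma adjusted p = 0.242 and 0.00568, the latter up to 0.0804 and lost without cassette library 1 or 2). MRX18 (YBR056W), a mitochondrial protein, was likewise called higher after Nab3 depletion and lower after Nrd1 depletion, at 0.21 and -0.58 (limma adjusted p = 0.0221 and 0.00744, up to 0.138 and 0.068 over the alternatives). YNL234W, a globin-like heme protein, was the reverse, at -0.25 and 0.40 (limma adjusted p = 0.0287 and 0.0223, up to 0.175 and 0.151). All 4 calls were lost without cassette library 1 or 2, while the differences between depletions, 0.79 and -0.65, kept their calls under every alternative (limma adjusted p = 0.00138 and 0.00315, up to 0.0259 and 0.0376). MRX18 and YNL234W were named after their values were seen.

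Among members lower after Nab3 than after Nrd1 depletion, YOR338W, a gene required for sporulation, had 1114 and 1038 normalised reads in the cassette, 704 and 731 with Nab3 depleted, and 1150 and 1156 with Nrd1 depleted. The Nab3 libraries were below both controls and the Nrd1 libraries just above them, with log2 fold changes of -0.58 ± 0.07 and 0.10 ± 0.07 (SE, limma adjusted p = 1.39e-05 and 0.286). YPR196W had 380 and 340 in the cassette, then 338 and 328, then 593 and 531. Its Nrd1 log2 fold change was 0.64 ± 0.11 (SE, limma adjusted p = 0.00606, up to 0.0715 without cassette library 2). YNL034W and YNL018C, a pair of sporulation genes that are 97.9% identical and therefore uncertain, and YHL012W, a UTP-glucose-1-phosphate uridylyltransferase-like gene, complete the 5 lowest, with at most 111 normalised reads in any library.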

How the data were processed

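The labels list 10 samples of crosslinked nuclear RNA in 5 groups of 2. The 6 libraries of 3 groups with value columns were used and 4 samples were not analysed here. The tools Bowtie 1.1.1 and DESeq and the genome builds sacCer3 and R64 come from lists in GEO, per the submitters' processing notes. Counter, strandedness and handling of multi-mapping reads were not given in the sources used here. As deposited, the values are a normalised signal, reads per gene that the authors divided by a size factor per library, and all were whole multiples of 1 read within 0.01 reads. Per the file headers, the deposited comparison tables give a log2 fold change, a p-value and its adjusted form for each gene, beside the gene length. The Nab3 columns are numbered 2 and 3 while the sample titles are numbered 1 and 2, so they were assigned to the group only.

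Features averaging 10 or more normalised reads were tested in each table on log2(value + 1) by limma 3.58.1 (R 4.3.3; lmFit, then eBayes with trend), with Benjamini-Hochberg adjustment. A joint fit of all 6 libraries tested Nab3 minus Nrd1. Alternatives were edgeR 4.0.16 and DESeq2 1.42.0 on recovered reads, another pseudocount, filter or scaling, no trend, a replicate block and each library left out. The limma fits were tested on data simulated with a fixed spread for all genes and libraries. Such data do not cover pairs that differ more, as the Nrd1 libraries did at YNL134C. Positions come from RefSeq R64. Copies were searched with blastn 2.17.0 and called at 90% identity over 20% of the length. Named genes are members changed at least 2-fold and called, the 5 highest and 3 lowest per length, the 5 largest differences in each direction, and up to 4 called members of each family list by size of change, with neighbours of described members. YGL185C, YPL088W, the examples by compartment, MRX18 and YNL234W fall outside this rule and were named after their values were seen. Members and lists were chosen with earlier results of these data known. A pairing correlation for same-numbered cassette and Nrd1 libraries was 0.0133. With 2 libraries per group it cannot settle whether numbers pair the samples, and the main fits used no pairing.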

Additional observations from a re-analysis of the deposited data

Results flagged for a closer look

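The members below were flagged because the 2 depletion groups, which also differ in strain, differed by the direct test, Nab3 minus Nrd1 on the log2 scale. The difference was 1.08 for YJL213W, 1.04 for YLR149C, 1.01 for YGR149W, 0.90 for YOL107W and 0.84 for YNR066C. It was -0.88 for YNL034W, -0.81 for YNL018C, -0.75 for YPR196W, -0.75 for YHL012W and -0.68 for YOR338W. The limma adjusted p-values ran from 0.000118 for YJL213W to 0.0426 for YNL018C. The differences of YLR149C, YNL034W, YNL018C and YHL012W did not pass under 1, 5, 6 and 7 of their alternatives. YNL034W and YNL018C share nearly all of their sequence, so their values are not independent.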

How the results depend on the processing

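The genes named by rule, those named after their values were seen and their described neighbours were recomputed under each alternative. After Nab3 depletion 32 of 39 calls held under every alternative, after Nrd1 depletion 15 of 42, and between depletions 12 of 25; the cause of the lost calls was not tested. Of 170 values, 20 changed sign under some alternative; none of these was a call with all libraries, and the one that passed the test after changing sign was YMR279C between depletions, 0.47 with all libraries, 1.56 without Nrd1 replicate 1 and -0.61 without Nrd1 replicate 2. Without the trend in eBayes, features called lower numbered 721 after Nab3 and 703 after Nrd1 depletion, and between depletions 436 features were higher and 339 lower, with 25 and 17 members. With DESeq2, 766 features and 28 members were lower after Nab3 depletion. Leaving out each library in turn gave, after Nab3 depletion, 1023 to 1402 features higher and 649 to 1401 lower, and 53 to 83 members higher and 27 to 50 lower. After Nrd1 depletion it gave 375 to 1751 features higher and 265 to 1866 lower, and 20 to 93 members higher and 15 to 80 lower. Between depletions it gave 277 to 1158 features higher and 134 to 921 lower, and 13 to 56 members higher and 8 to 43 lower. A fit that leaves 1 library in a group assumes that it varies like the others. The replicate block, fitted for Nrd1 although it is not known whether the numbers pair the samples, gave 64 members higher and 51 lower and 1113 and 1130 features. Members with an entry, no overlap and no near-identical copy numbered 261, of which 68 rose and 39 fell after Nab3 depletion and 60 rose and 48 fell after Nrd1 depletion. Too few reads for the filter left 16 and 17 members untested after Nab3 and Nrd1 depletion.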
